A study of Homo sapiens with 6 samples.

Results

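Mitochondrial ribosomal proteins are the protein part of the ribosome that works inside mitochondria. The genes were taken by symbol, as every gene whose name in the platform's annotation begins with MRPL or MRPS, from probe sets naming that gene alone. This gave 50 genes of the 12165 measured, read by 62 probe sets, out of 77 protein-coding MRPL and MRPS symbols in the RefSeq gene table. A further 3 probe sets name such a gene together with another one and were left out.

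LNCaP cells are an androgen-responsive line from a human prostate carcinoma. Cultures in RPMI medium with fetal bovine serum received either 20 µM gedunin, a limonoid natural product, or the solvent DMSO, and RNA was taken after 6 h. Each group has 3 arrays numbered as biological replicates of this 1 cell line, and nothing in the labels says more about how the cultures were separated, so p-values cover only how these arrays vary, which may be technical. Gedunin has been reported as a compound whose expression response resembles that of HSP90 inhibitors. The comparison asks how gedunin alters expression within hours.

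Markers of LNCaP cells were low or missing on the array labelled DMSO 3, which is shown apart. The summed intensity of 9 luminal prostate markers was 13238 to 13883 with gedunin, 14161 and 14435 on DMSO 1 and 2, and 223 on the array labelled DMSO 3, where 5 of the 9 lay at least 8-fold below the other arrays' mean. The sum of 10 leukocyte markers was 749 to 838, 916 to 942, and 28633 on that array, where 10 of the 10 lay at least 8-fold above the mean of the other 5 arrays. Tests therefore set gedunin 1, 2 and 3 against DMSO 1 and 2, and results with all 6 arrays are given where the calls are described. Values are RMA intensities, a normalised brightness with no absolute unit, and the median of an array lay between 31.1 and 31.8. The treatment was visible in stress genes, as HSPA6, a stress-inducible HSP70, rose from a mean of 24.6 to 2161.

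The mitochondrial ribosome has a large and a small subunit built around 2 ribosomal RNAs that mitochondrial DNA encodes. All its proteins are encoded in the nucleus, made in the cytosol and imported. Many descend from bacterial ribosomal proteins, while others were added in the mitochondrial lineage. The ribosome makes only the few mitochondrial-encoded subunits of the respiratory chain and the ATP synthase, so cells need it to respire. Names of the S series do not always tell the subunit: the MRPS30 and MRPS18A proteins sit in the large subunit and are counted there.

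One gene rose and 12 fell. MRPL18 rose 3.74-fold, and the falls reached 59.8% of the DMSO level for MRPL17 and for MRPL16 and lay between 71.7% and 81.3% for the other 10. The remaining 37 did not pass the test. In such bulk RNA, fewer cells of a kind and less RNA per cell cannot be told apart. The test was limma's, with an adjusted p (Benjamini-Hochberg over all probe sets) under 0.05. The 13 called genes are 26% of the 50, where 17.6% of all 12165 genes were called. By direction, 8.22% of all genes were called higher and 9.35% lower, against 2% and 24% of the mitochondrial ribosomal protein genes. Many genes on the array lie near the floor of the scale, though, and when probe sets under 64 on all 5 arrays were removed first, 20.4% of 5682 genes were called lower and 16.9% higher. Of the 46 mitochondrial ribosomal protein genes left, 14 (30.4%) were then lower and 2 higher, a share of falls nearer to the background. The median log2 fold change was -0.17, beside -0.017 over all genes, or -0.19 beside -0.068 with dim probe sets removed. Below 0 were 36 of 50 values (72%), beside 53.6% of all genes. In 30 genes all 3 gedunin arrays lay below both DMSO arrays, which was so for 26% of all genes, and in 6 they lay above both, as in 20.2% of all genes. The count of falls rests on few arrays: it was 3 (6%) without DMSO 1, where 4.56% of all genes were called lower, and 4 (8%) without DMSO 2, where 4.34% were. Without gedunin 1, 2 and 3 it was 9, 8 and 7 (18%, 16% and 14%), beside 7.09%, 7.58% and 8.22% of all genes. Without DMSO 1 the share thus lay near the background. With all 6 arrays 1 gene rose and 1 fell, while 1.32% and 0.353% of all genes did (1.68% in all).

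**Figure D1:**
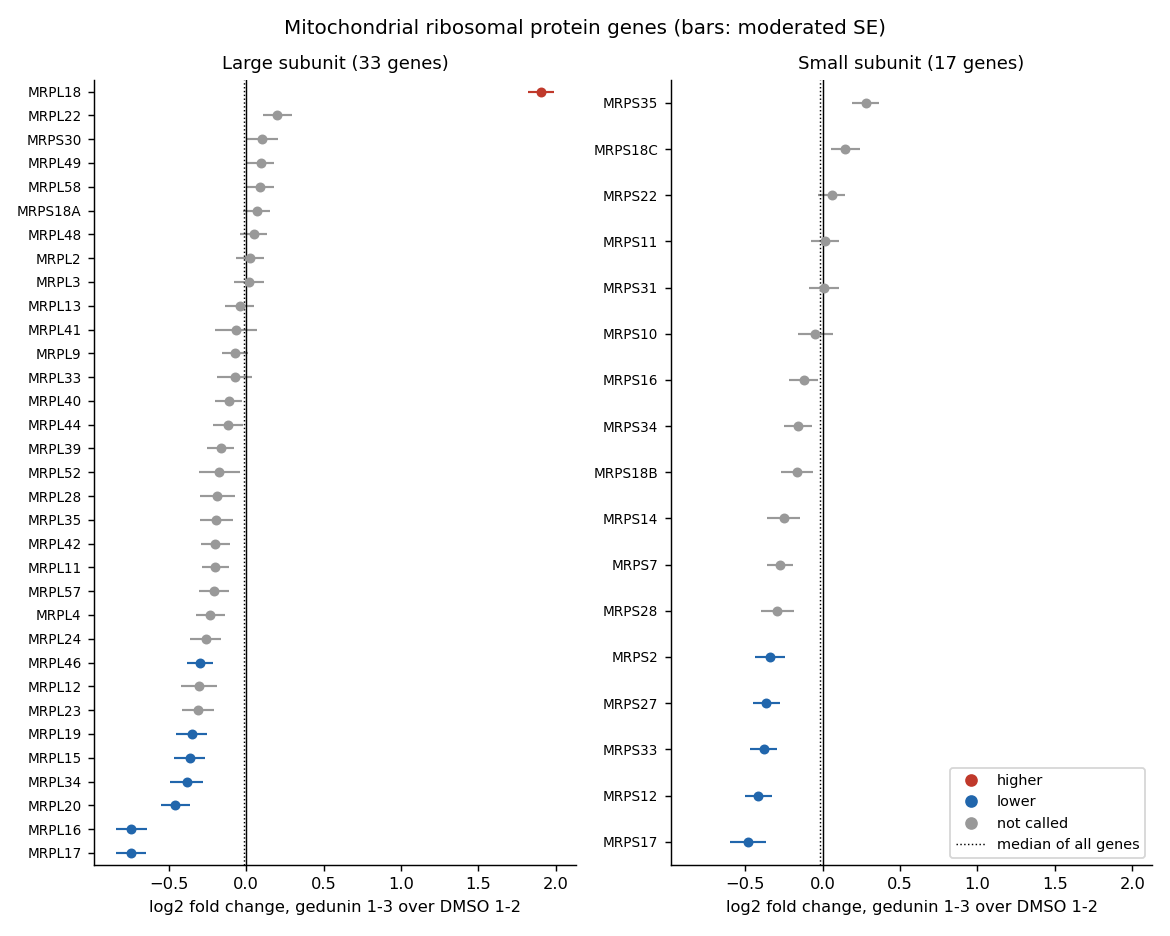
Log2 fold change of gedunin 1 to 3 over DMSO 1 and 2 for each of the 50 genes, with the moderated standard error as bars, split by subunit. Red marks the gene called higher, blue the 12 called lower, grey the 37 not called, and the dotted line is the median of all genes. MRPL18 lies at 1.90, and every other gene lies between -0.74 and 0.28.

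MRPL18 stood apart from the other 49 genes in size and direction. It encodes the mitochondrial counterpart of bacterial ribosomal protein L18, which sits in the central protuberance of the large subunit. As background, heat-stressed cells are known to make a shorter form of MRPL18 from a downstream CUG start codon, and this form stays in the cytosol and joins cytosolic ribosomes. The arrays measure its mRNA and cannot tell the forms apart. Its intensity was 3683, 3820 and 3571 on gedunin 1, 2 and 3 against 977.8 on DMSO 1 and 995.4 on DMSO 2. The groups were far apart, and the array labelled DMSO 3 read 767.3, lower than either. The log2 fold change was 1.90 ± 0.09 (moderated SE, n = 3 and 2; limma adjusted p = 4.56e-07), with a 95% interval of 1.71 to 2.09. The call held in 17 of 17 alternative fits, with all 6 arrays giving 2.02 ± 0.13 (limma adjusted p = 0.00486). By size of rise MRPL18 was number 62 of the 12165 genes. A single probe set reads this gene, so the fits with other choices of probe set could not change its value.

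The window around an annotated MRPL18 start is printed to show its sequence matches, and a neighbouring gene is described after it. It runs on the plus strand at chr6:159789617-159789916 (GRCh38.p14, RefSeq), from 250 bases before to 50 bases after the annotated start, and is the 1 of the gene's 3 windows with the most matches. Capitals mark matches to the heat shock element pair, searched as GAANNTTC or TTCNNGAA, each of which reads the same on both strands.
MRPL18: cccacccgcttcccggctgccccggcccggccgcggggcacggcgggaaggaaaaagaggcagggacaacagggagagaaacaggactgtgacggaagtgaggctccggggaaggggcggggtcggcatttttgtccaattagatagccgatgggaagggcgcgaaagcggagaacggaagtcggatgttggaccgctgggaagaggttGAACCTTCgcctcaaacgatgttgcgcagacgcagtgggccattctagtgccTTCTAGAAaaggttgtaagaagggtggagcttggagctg
The matches begin 41 bases before and at base 12 from that start. Such a pair was found in 13.5% of 35116 RefSeq windows of this length and in 14.3% of the 56 windows of 44 mitochondrial ribosomal protein genes. Its holders among them were MRPL18, MRPL22, MRPL33, MRPL48, MRPS18A, MRPS18B and MRPS35, of which 1 rose and 0 fell. Of all 50 mitochondrial ribosomal protein genes 2% rose and 24% fell. The pair extended by another GAA or TTC in the same spacing was found in MRPL48 alone among these genes, and in 0.490% of all windows. A match describes letters and does not show that a factor binds. MRPL13, MRPL15, MRPL2, MRPL23, MRPL35 and MRPS28 have no entry in the promoter table.

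TCP1, which encodes a subunit of the cytosolic chaperonin that folds actin and tubulin, starts 210 bases from the nearest MRPL18 start on the opposite strand. TCP1 read 3229, 3277 and 3612 with gedunin and 2276 and 2249 on DMSO 1 and 2. All gedunin arrays were higher, by a log2 fold change of 0.57 ± 0.09 (limma adjusted p = 0.00201). The call held in 5 of 5 fits that left out 1 array but not with all 6 arrays (0.55, limma adjusted p = 0.0530). A link between the rises of TCP1 and MRPL18 was not tested. Other subunit genes of this chaperonin were also read, where 8.22% of all genes were called higher. CCT4 (0.48 ± 0.09, limma adjusted p = 0.00495) and CCT5 (0.43 ± 0.09, limma adjusted p = 0.00852), of the same chaperonin, were also called higher. CCT2, CCT3, CCT6A, CCT6B, CCT7 and CCT8 were not called, and with all 6 arrays neither were CCT4 and CCT5. Of 16 mitochondrial ribosomal protein genes with such a head-to-head neighbour within 1000 bases, 10 had a measured one, and the pairs did not always move alike. MRPS27, a pentatricopeptide repeat protein of the small subunit, fell together with PTCD2, a protein of the same repeat class (-0.62 ± 0.11, limma adjusted p = 0.00384), whose start is 133 bases away. MRPS12 fell, while SARS2, the mitochondrial seryl-tRNA synthetase that starts 181 bases from it, had a value of 0.058 ± 0.085 (limma adjusted p = 0.733). MRPL46 and MRPS11 form a pair of 2 mitochondrial ribosomal protein genes with starts 320 bases apart. MRPL46 fell by 0.30 on the log2 scale, whereas MRPS11 had 0.013 ± 0.091, and the difference between the 2 was not tested. GGA3, next to MRPS7, fell as well (-0.43 ± 0.10, limma adjusted p = 0.0194), while MRPS7 missed the threshold. The call of PTCD2 was lost without DMSO 2, and that of GGA3 without DMSO 2 or gedunin 1, and neither was called with all 6 arrays.

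**Figure D2:**
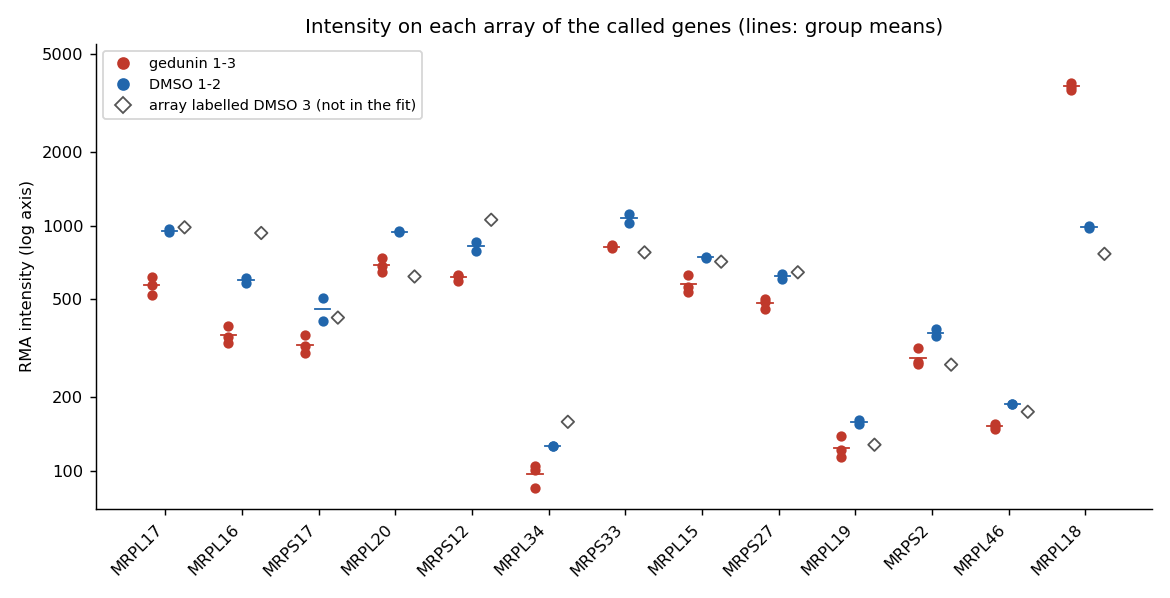
RMA intensity on each array, on a log axis, for the 13 called genes in order of their change. Red points are gedunin 1 to 3, blue points DMSO 1 and 2, short lines the group means, and open diamonds the array labelled DMSO 3, which is not in the fit. In all 13 genes the red and blue points do not overlap, which their choice by the test favours. MRPL18 is the 1 gene with red above blue.

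MRPL17 and MRPL16, both large subunit proteins with a bacterial counterpart, fell most. MRPL17 read 522.8, 574.4 and 617.4 with gedunin against 940.9 and 967.5 on DMSO 1 and 2. Every gedunin array was lower. The array labelled DMSO 3, where markers of LNCaP cells were low or missing, read 984.3. The log2 fold change was -0.74 ± 0.10 (limma adjusted p = 6.74e-04), and the fall was also called with all 6 arrays (-0.76 ± 0.09, limma adjusted p = 0.0316). MRPL16, whose bacterial counterpart contacts tRNA beside the peptidyl transferase centre, read 332.1, 351.9 and 391.4 against 610.2 and 586.2. It fell by 0.74 ± 0.10 on the log2 scale (limma adjusted p = 6.90e-04). On the array labelled DMSO 3 it read 933.3, and with that array in the fit the value was -0.96 ± 0.20 (limma adjusted p = 0.125). Both calls held in 5 of 5 fits that left out 1 array.

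Their windows are shown for comparison, with capitals for a match to the NRF1 motif (GCGCA, any base, GCGC, or its reverse complement) in MRPL17 and to the ETS motif (CCGGAAG or CTTCCGG) in MRPL16. These motifs are known from promoters of nuclear genes for mitochondria. Both windows are on the minus strand of GRCh38.p14 (RefSeq), MRPL17 at chr11:6683291-6683590 and MRPL16 at chr11:59810729-59811028.
MRPL17: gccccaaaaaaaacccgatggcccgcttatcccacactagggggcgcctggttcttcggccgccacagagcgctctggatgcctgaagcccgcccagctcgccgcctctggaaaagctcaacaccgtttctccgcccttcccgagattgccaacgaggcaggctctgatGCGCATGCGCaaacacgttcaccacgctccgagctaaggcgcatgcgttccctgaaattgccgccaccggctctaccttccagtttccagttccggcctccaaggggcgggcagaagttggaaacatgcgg
MRPL16: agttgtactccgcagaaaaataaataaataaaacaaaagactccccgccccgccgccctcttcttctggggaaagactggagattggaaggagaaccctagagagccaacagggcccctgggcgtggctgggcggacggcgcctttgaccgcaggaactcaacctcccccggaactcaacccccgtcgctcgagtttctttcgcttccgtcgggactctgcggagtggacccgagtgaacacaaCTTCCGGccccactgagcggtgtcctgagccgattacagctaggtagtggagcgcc
The matches begin 81 and 6 bases before the start. The ETS motif was found in 37.5% of the windows of mitochondrial ribosomal protein genes against 10.3% of all windows, and the YY1 motif (AANATGGCG or CGCCATNTT) in 17.9% against 3.19%. For NRF1 the shares were 8.93% and 5.78%, and for the E-box (CACGTG) 8.93% and 7.26%. The ATF4 composite element (TGATGNAA or TTNCATCA) was found in 0 of the 56 windows and in 3.62% of all. Of the 4 genes with the NRF1 motif, MRPL17, MRPL34 and MRPS33 fell and MRPL57 was not called (-0.21 ± 0.10). Of the 19 with the ETS motif 4 fell and 1 rose, and of the 10 with the YY1 motif 1 fell. Over all 50 mitochondrial ribosomal protein genes 24% were called lower and 2% higher, and of all measured genes 9.35% were called lower. The NRF1 count rests on 4 genes, of which the MRPL34 call held in 1 of 5 fits that left out 1 array. A link between motifs and calls was not tested.

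The other falls in the large subunit were MRPL20, MRPL34, MRPL15, MRPL19 and MRPL46. MRPL20, whose bacterial counterpart binds rRNA early in assembly, read 684.6, 740.0 and 646.0 with gedunin against 944.1 and 948.5. Its log2 fold change was -0.46 ± 0.09 (limma adjusted p = 0.00804), and the array labelled DMSO 3, at 620.5, lay below all 3 gedunin arrays. A second probe set for MRPL20 is dim and was not called. MRPL34, the counterpart of the short bacterial protein L34, read 105.0, 101.4 and 85.6 against 126.8 and 126.5 (-0.39 ± 0.11, limma adjusted p = 0.0354). MRPL15, the counterpart of bacterial L15, read 631.9, 535.7 and 562.4 against 742.6 and 741.0 (-0.37 ± 0.10, limma adjusted p = 0.0307). MRPL19, whose counterpart lies at the interface between the subunits, read 121.6, 138.6 and 113.7 against 155.5 and 162.0 (-0.35 ± 0.10, limma adjusted p = 0.0457). On all 3 of these genes each gedunin array lay below both DMSO arrays. MRPL46, a mitochondria-specific protein of the central protuberance, read 152.8, 155.7 and 148.6 against 186.6 and 188.0 (-0.30 ± 0.08, limma adjusted p = 0.0402). For MRPL20 and MRPL46, too, the groups did not overlap. The choice of these genes by the test favours this, and 26% of all genes had every gedunin array below both DMSO arrays. These calls were less firm than those of MRPL17 and MRPL16: of 5 fits that left out 1 array, MRPL20 held in 3 (lost without DMSO 1 or DMSO 2), MRPL15 and MRPL34 in 1 (without gedunin 1), MRPL19 in 1 (without gedunin 2) and MRPL46 in 0. With all 6 arrays none of these 5 was called, at values from -0.49 for MRPL34 to -0.25 for MRPL19 (limma adjusted p = 0.210 at the lowest and 0.688 at the highest).

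In the small subunit MRPS17, MRPS12, MRPS33, MRPS27 and MRPS2 fell and none rose, out of 17. MRPS17, the counterpart of bacterial S17, which binds rRNA directly, read 356.7, 301.2 and 321.9 with gedunin against 505.6 and 408.4. Its log2 fold change was -0.48 ± 0.12 (limma adjusted p = 0.0204), with controls that differed by more than the gedunin arrays did. MRPS12, the counterpart of S12 in the decoding centre, read 597.1, 631.6 and 620.7 against 789.4 and 855.5 (-0.42 ± 0.09, limma adjusted p = 0.0106). It has 3 further probe sets, all near the floor and not called. MRPS33, a mitochondria-specific protein, read 807.9, 830.9 and 824.0 against 1120 and 1021 (-0.38 ± 0.09, limma adjusted p = 0.0159). MRPS27 read 501.4, 457.6 and 488.9 against 607.4 and 634.8 (-0.36 ± 0.09, limma adjusted p = 0.0208). MRPS2, the counterpart of bacterial S2, read 274.2, 317.7 and 278.0 against 354.2 and 378.6 (-0.34 ± 0.10, limma adjusted p = 0.0441). Groups did not overlap in any of the 5, which their choice by the test favours. MRPS12 and MRPS33 were called in 4 of 5 fits that left out 1 array (MRPS12 lost without DMSO 2, MRPS33 without DMSO 1), MRPS17 in 3 (lost without DMSO 1 or gedunin 2), MRPS27 in 2 (without gedunin 1 or gedunin 3) and MRPS2 in 1 (without gedunin 2). With all 6 arrays none of the 5 was called: MRPS12 was at -0.54, MRPS33 at -0.23 and MRPS2 at -0.20, and limma adjusted p ran from 0.120 to 0.696.

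The 2 subunits had like medians, at -0.17 in the large subunit (1 rose and 7 fell of 33) and -0.17 in the small one (0 rose and 5 fell of 17). The shares called lower were 21.2% and 29.4%, beside 9.35% of all genes. Of the 30 proteins with a bacterial counterpart, 1 rose and 9 fell (30% lower), with a median of -0.24. Of the 20 classed as mitochondria-specific, 0 rose and 3 fell (15% lower), with a median of -0.12. In the large subunit 30% and 7.69% of these 2 classes fell, and in the small one 30% and 28.6%. None of these splits was tested.

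Among the genes that did not pass, the lowest values were those of MRPL23, MRPL12, MRPS28, MRPS7 and MRPL24. MRPL23, a counterpart of a protein at the exit tunnel, had -0.31 ± 0.10 (limma adjusted p = 0.0805). MRPL12, the stalk protein, had -0.31 ± 0.12 (limma adjusted p = 0.119), and MRPS28 -0.29 ± 0.11 (limma adjusted p = 0.105). MRPS7, the counterpart of S7 in the head of the small subunit, read 589.7, 601.1 and 627.1 against 741.8 and 724.5 and missed the threshold narrowly (-0.28 ± 0.09, limma adjusted p = 0.0588). MRPL24 had -0.26 ± 0.10 (limma adjusted p = 0.111). All gedunin arrays of these 5 genes lay below both DMSO arrays, which their choice as the lowest values favours.

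The highest values among them were those of MRPS35, MRPL22, MRPS18C, MRPS30 and MRPL49. MRPS35, a mitochondria-specific protein of the small subunit, read 772.0, 725.8 and 787.8 against 613.2 and 642.7, with no overlap (0.28 ± 0.09, limma adjusted p = 0.0631). On the array labelled DMSO 3 it read 330.5. MRPL22 had 0.20 ± 0.09 (limma adjusted p = 0.190), and MRPS30 0.10 ± 0.10 and MRPL49 0.094 ± 0.087 (limma adjusted p = 0.603 and 0.562). MRPS18C, at 0.15 ± 0.09, read 16.6 to 19.6 on the 5 arrays, which is near the lowest intensity of the table, 11.04. MRPL41, MRPL44 and MRPL52 were as dim, under 64 on all 5 arrays, and their values say little. MRPL3, by contrast, read 1933, 1770 and 2004 against 1780 and 1975, and a difference beyond -0.20 to 0.23 lies outside its 95% interval.

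MRPS14 was read differently by its 2 probe sets. The brighter one, used here, had -0.25 ± 0.10 (limma adjusted p = 0.149), and the dimmer one fell by 0.44 ± 0.11 on the log2 scale (limma adjusted p = 0.0247). Of the 9 genes with more than 1 probe set, MRPL20, MRPS11, MRPS12 and MRPS14 had probe sets that differed in call or sign.

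The respiratory chain and the cytosolic ribosome give a measure of scale. Of 69 protein-coding nuclear genes for the respiratory chain and ATP synthase, 0 rose and 4 fell, with a median of -0.15 and 62 values below 0. Of 67 cytosolic ribosomal protein genes, 1 rose and 1 fell, with a median of -0.079 and 57 values below 0. The share called lower was thus 5.80% and 1.49%, against 24% for the mitochondrial ribosome and 9.35% of all genes. Both comparison families thus lay below the share of all genes. With dim probe sets removed, 30.4% of the mitochondrial ribosomal protein genes and 20.4% of all genes were called lower. These differences are given as counts and were not tested. Values below 0 were common in all 3 families, at 72% for the mitochondrial ribosome against 89.9% and 85.1%, beside 53.6% of all genes. All 3 gedunin arrays lay below both DMSO arrays in 45 of the 69 and 34 of the 67 genes, beside 30 of the 50 and 26% of all genes.

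**Figure D3:**
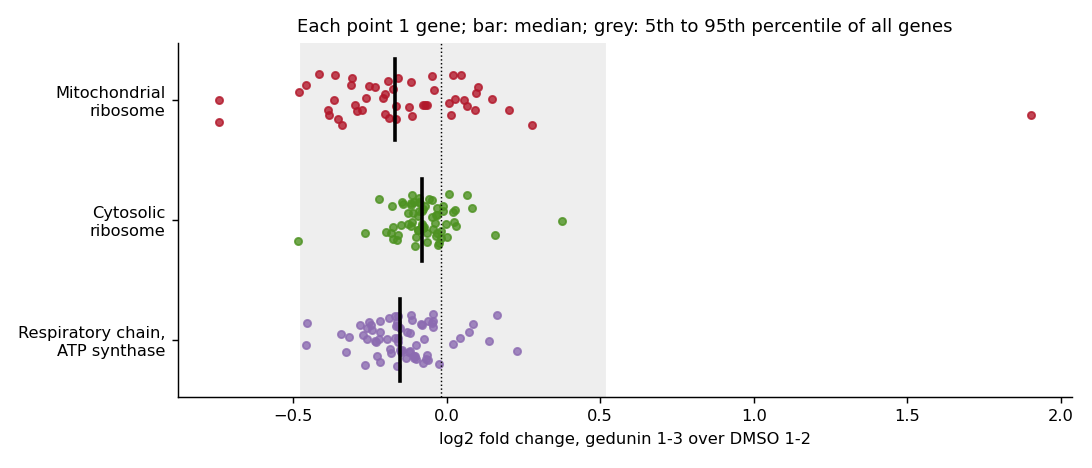
Log2 fold change of gedunin 1 to 3 over DMSO 1 and 2, 1 point per gene (height within a row is arbitrary), for 69 respiratory chain and ATP synthase genes, 67 cytosolic and 50 mitochondrial ribosomal protein genes. Black bars are medians (-0.15, -0.079 and -0.17), the dotted line is the median of all genes and grey spans their 5th to 95th percentile, -0.47 to 0.52.

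The ribosome also needs proteins named otherwise, factors that start, elongate and end translation, and factors that process and modify its RNA. In the lists of such genes and their regulators 5 rose and 19 fell in all. In the order described below, the 5 lists held 3, 10, 16, 19 and 8 measured genes. Their shares called lower were 33.3%, 10%, 37.5%, 47.4% and 25%, and their shares called higher 0%, 10%, 0%, 10.5% and 25%. Of all genes 8.22% were called higher and 9.35% lower, or 16.9% and 20.4% with dim probe sets removed. With all 6 arrays 1 rise (NRF1) and 3 falls (MYC, ELAC2 and DDX28) were called, beside 1.32% and 0.353% of all genes. Every other call named from these lists was lost there. Of 3 measured mitochondrial ribosomal proteins with other names, PTCD3, a pentatricopeptide repeat protein of the small subunit, fell by 0.51 ± 0.09 on the log2 scale (limma adjusted p = 0.00417). The call was lost without DMSO 1. DAP3 had -0.061 ± 0.087 and GADD45GIP1 -0.30 ± 0.13, neither called. Of 10 translation factors 1 rose and 1 fell (10% each, near the shares of all genes), with a median of -0.089. MTRF1, a mitochondrial release factor family member, read 78.6, 84.9 and 78.1 with gedunin against 44.1 and 34.6, a rise of 1.04 ± 0.11 (limma adjusted p = 1.95e-04). OXA1L, which inserts newly made proteins into the inner membrane, fell by 0.33 ± 0.09 (limma adjusted p = 0.0386), a call that held in 1 of 5 fits that left out 1 array. The elongation factor gene TUFM had -0.14 ± 0.08 and was not called.

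Of 16 measured genes for ribosome assembly and rRNA maturation, 0 rose and 6 fell (37.5%, beside 9.35% of all genes), with a median of -0.29. Without DMSO 2, 3 fell, where 4.34% of all genes were called lower, and without any other array 5 or 6. MRM2, which methylates the large mitochondrial rRNA, read 53.4, 61.8 and 70.1 with gedunin against 130.7 and 120.6. Its levels thus fell to 48.9% (-1.03 ± 0.12, limma adjusted p = 2.89e-04). DDX28, a helicase of large subunit assembly, fell by 0.62 ± 0.09 (limma adjusted p = 0.00160), and was also called with all 6 arrays. FASTKD2, an RNA granule protein, fell by 0.56 ± 0.11, and TFB1M, which methylates the small rRNA, by 0.55 ± 0.09 (limma adjusted p = 0.00663 and 0.00320). MTERF4, a partner in large subunit assembly, fell by 0.48 ± 0.11 and METTL17, a factor of small subunit assembly, by 0.47 ± 0.09 (limma adjusted p = 0.0177 and 0.00620). For MTERF4 the array labelled DMSO 3 read 52.9, below the gedunin arrays, and the value with all 6 arrays was 0.058. On probe sets without the suffixes _s_at and _x_at, DDX28 gave -0.25 and FASTKD2 -0.28, neither called. Without DMSO 2 the calls of FASTKD2, METTL17 and MTERF4 were lost, and that of MTERF4 also without gedunin 1.

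Of 19 genes for mitochondrial transcription and RNA metabolism, 2 rose and 9 fell, with a median of -0.31. These are 10.5% and 47.4%, beside 8.22% and 9.35% of all genes. The 9 became 4 without DMSO 1 and 4 without DMSO 2, where 4.56% and 4.34% of all genes were lower. Without a gedunin array the count was 8 to 10, beside 7.09% to 8.22% of all genes. FASTKD3, a protein of mitochondrial RNA stability, fell by 0.95 ± 0.13, and POLRMT, the mitochondrial RNA polymerase, by 0.84 ± 0.16 (limma adjusted p = 8.01e-04 and 0.00535). ELAC2, which cuts tRNA ends, fell by 0.83 ± 0.10 (limma adjusted p = 5.31e-04), but a probe set of it without the suffix _s_at gave 0.025. MTERF3, a regulator of mitochondrial transcription and ribosome assembly, fell by 0.61 ± 0.13, and the pseudouridine synthase gene PUS1 by 0.58 ± 0.09 (limma adjusted p = 0.0119 and 0.00186). PUS1 was dim, at 31.4, 33.8 and 32.1 with gedunin against 46.2 and 51.0, so its fold is less certain. The call of POLRMT was lost without DMSO 1, and that of MTERF3 without DMSO 1 or DMSO 2. MTO1, which modifies mitochondrial tRNAs, rose by 0.73 ± 0.11 (limma adjusted p = 0.00123).

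Among 8 known regulators of nuclear genes for mitochondria, 2 rose and 2 fell (25% each, beside 8.22% and 9.35% of all genes). NRF1, a transcription factor of many such genes, read 95.2, 105.8 and 89.0 with gedunin against 40.3 and 37.6, with 38.1 on the array labelled DMSO 3. The rise of 1.31 ± 0.10 (limma adjusted p = 1.89e-05) held with all 6 arrays. GABPB1, a subunit of the ETS family factor GABP, rose by 0.84 ± 0.10 (limma adjusted p = 4.45e-04). MYC read 608.7, 746.4 and 680.6 against 1167 and 1301, a fall of 0.87 ± 0.11 (limma adjusted p = 4.97e-04) that also held with all 6 arrays. PPRC1, a coactivator that works with NRF1, fell by 0.83 ± 0.15 (limma adjusted p = 0.00374). The DMSO levels of NRF1 and MTRF1 lay near the array median, and folds of such dim probe sets are less certain. YY1 had -0.049 ± 0.115 and was not called.

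**Figure D4:**
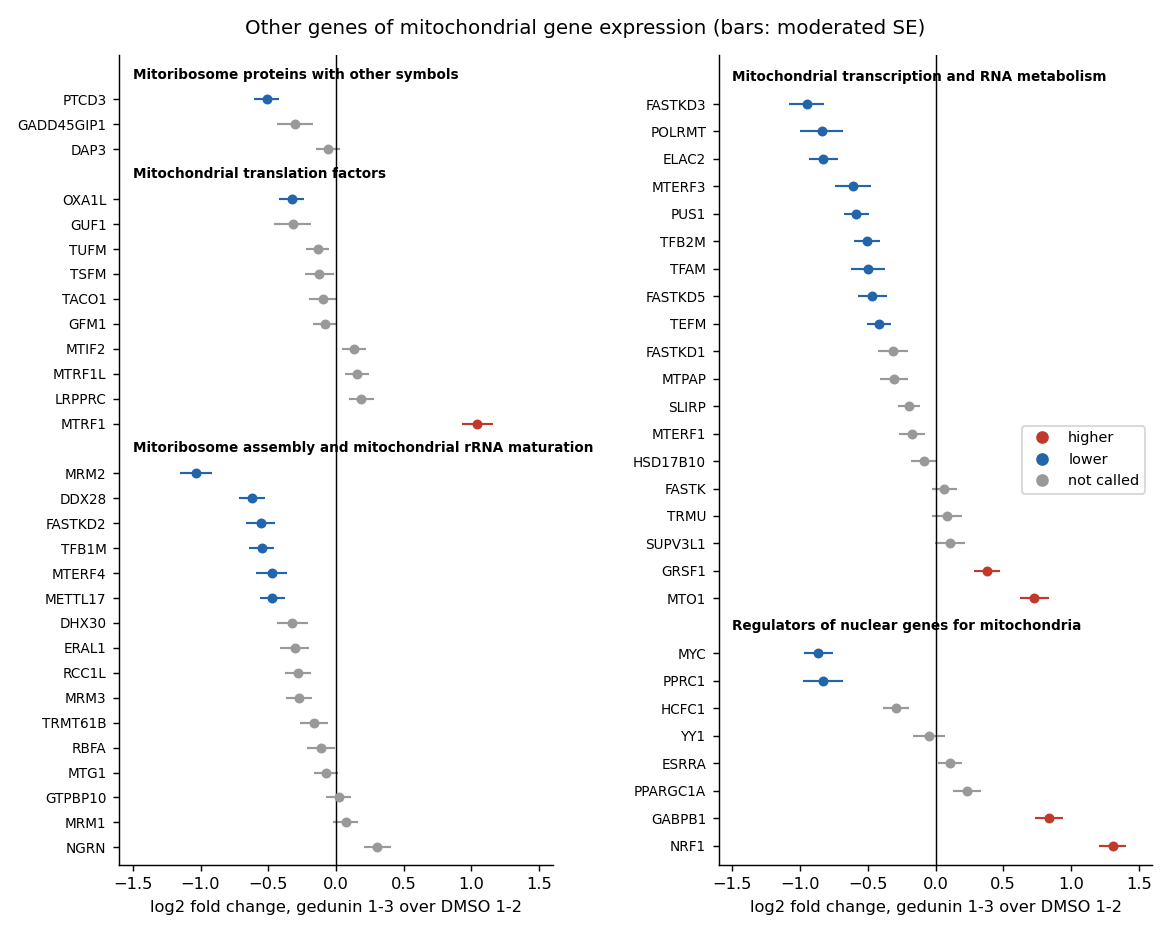
Log2 fold change of gedunin 1 to 3 over DMSO 1 and 2, with the moderated standard error as bars, for the 5 lists of other genes of mitochondrial gene expression. Red marks genes called higher, blue genes called lower and grey genes not called. In the assembly and RNA metabolism lists 6 of 16 and 9 of 19 genes are blue, against 1 of 10 translation factors and 9.35% of all genes.

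On the array labelled DMSO 3 most mitochondrial ribosomal protein genes lay within 2-fold of DMSO 1 and 2. Of the 50 genes, 2 were at least 2-fold above the mean of DMSO 1 and 2 and 0 at least 2-fold below, while 9.22% and 12.9% of all genes were. The 2 were MRPL35, at 778.1 against 278.2 and 289.7, and MRPL11, at 389.5 against 162.5 and 167.2. The ratio to DMSO 1 and 2 ranged from 0.522 to 2.74 with a median of 0.938. With this 1 array there is no replicate, and no test was made.

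**Figure D5:**
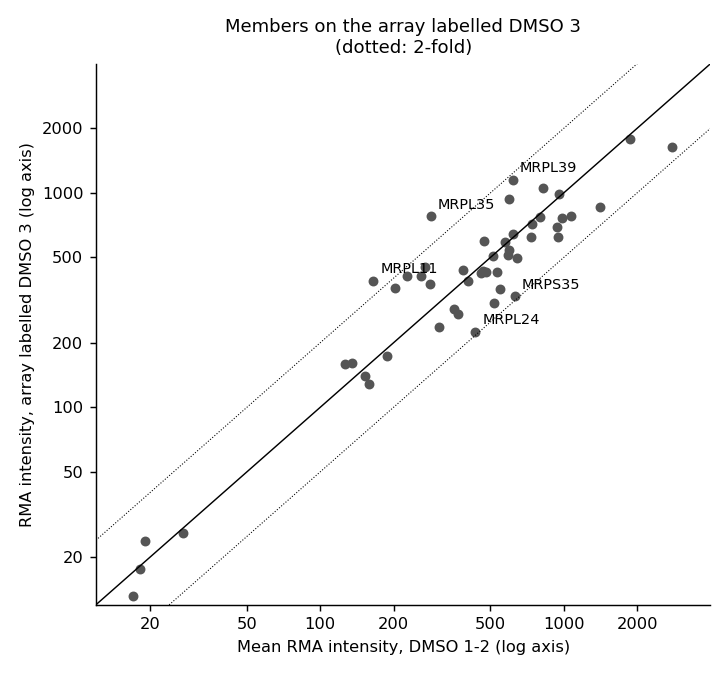
RMA intensity of the 50 genes on the array labelled DMSO 3 against the mean of DMSO 1 and 2, both on log axes, 1 point per gene. The solid line marks equal values and the dotted lines a 2-fold difference, beyond which lie MRPL35 and MRPL11.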

How the data were processed

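Per the labels, LNCaP cultures received gedunin (20 µM) or DMSO for 6 h, and their total RNA went onto Affymetrix arrays, 3 for each group. The deposited table holds 1 intensity per array for 22215 probe sets, on a linear scale; the submitters' processing notes name RMA, without a version, and the table holds no detection calls. Log2 was taken.

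Probe sets were named with the platform annotation of 2016; of the 19724 probe sets that name 1 gene, the one of largest mean on the 6 arrays stood for its gene. Entrez identifiers of all 50 genes matched the RefSeq table, with 0 changes of symbol. Limma 3.58.1 (R 4.3.3; lmFit and eBayes, no filter, two-sided) compared gedunin 1, 2 and 3 with DMSO 1 and 2. Errors are moderated standard errors. Adjusted p-values run over all probe sets, with a threshold of 0.05. The code was tested on simulated data. The number of arrays limits the precision.

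All called genes were named, and of the others the 5 highest, the 5 lowest and those whose probe sets disagree. Of each pathway list up to 6 called genes were named. MRPL3, MRPL57, DAP3, GADD45GIP1, TUFM and YY1, the CCT genes, and genes next to a start, were named after their values were seen. The genes, lists and motifs were chosen with earlier results of these data known. Alternatives tried were all 6 arrays, a filter on dim probe sets, 2 ways of centring, quantile normalization, a replicate block, trend and robust eBayes, leaving out single arrays, array weights, a stricter threshold of 0.01, other choices of probe set, and log2 of the intensity plus 16. Following the calls of pathway genes and neighbours through these alternatives was decided after seeing the data.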

Additional observations from a re-analysis of the deposited data

Results flagged for a closer look

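The dimmer probe set of MRPS14, which the comparison does not use, gave a log2 fold change of -0.44 and passed the test, while the brighter one did not.

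On the array labelled DMSO 3, which the comparison leaves out, MRPL35 read 778.1 and MRPL11 read 389.5, each more than 2-fold above every other array.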

How the results depend on the processing

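The rise of MRPL18 and the fall of MRPL17 were called in every alternative fit run (17 and 16), and the fall of MRPL16 in 15 of 16, the exception being all 6 arrays. Over the 13 called genes, 161 of 214 alternative values kept the call, 53 kept the direction alone and 0 turned. These counts include fits with other choices of probe set, which could not change the value of a gene with 1 probe set. The number of genes lower with gedunin, 12, became 1 with all 6 arrays, 27 (54%, beside 25.8% of all genes) with centring on GAPDH and ACTB, 5 of 23 genes (21.7% beside 8.25%) without probe sets ending in _x_at or _s_at (median -0.076), 6 (12% beside 7.80%) with the replicate block and 3 (6% beside 4.595%) at a threshold of 0.01, and 3 to 9 when 1 array was left out. The number higher, 1, became 2 with dim probe sets removed, with trend and robust eBayes, with log2 of the intensity plus 16 and with the mean of all probe sets, MRPS35 being the gene added, and stayed 1 when 1 array was left out. Centring on GAPDH and ACTB moved the median of the 50 genes to -0.34 and that of all genes to -0.19, so the distance between the medians stayed at -0.15; ACTB itself was higher with gedunin. In the pathway lists, calls went from 5 higher and 19 lower to 1 and 3 with all 6 arrays. With centring on GAPDH and ACTB they went to 4 and 32, where 25.8% of all genes were lower.

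Among the 25 named mitochondrial ribosomal protein genes, values that turned were all of genes not called. In the pathway lists the called MTERF4 turned to 0.058 with all 6 arrays, and without probe sets ending in _x_at or _s_at ELAC2 turned to 0.025 and GRSF1 to -0.12. With all 6 arrays MRPL24 became 0.050, MRPS11 -0.0029 and MRPS30 -0.19. With centring on GAPDH and ACTB, MRPL49 became -0.076, MRPS11 -0.16, MRPS18C -0.024 and MRPS30 -0.069. MRPS11 became -0.031 with the mean of all probe sets, -0.028 with quantile normalization and -0.025 with the replicate block. With 1 array left out, MRPS11 ran from -0.025 (without gedunin 3) to 0.063 and MRPS30 from -0.0074 (without DMSO 1) to 0.21. The cause of these changes was not tested.

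The replicate numbers were not shown to pair the arrays: deviations of same-numbered arrays from their group means correlated at -0.061 and 0.0093 over the 11107 brighter probe sets. In this design the block also sets gedunin 3 aside, which has no partner among the controls used.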
